A study of Mus musculus with 4 samples.

Results

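Among the 9243 regions of an m6A RIP-seq comparison of interscapular brown adipose tissue (iBAT), 1023 (11.1%) had their peak center in an internal exon, that is, in an exon that is neither the first nor the last of its gene. A region was taken when at least 1 gene entry placed its center in an exon numbered above the first and no entry placed it in the first exon, the last exon or a UTR; 42 further regions had an internal-exon entry but also such a gene-end entry and were left out. The members carried 844 gene symbols, of which 140 had at least 2 regions, and 62 members lay over more than 1 gene. They were compared with 5510 regions centered in a last exon or 3′-UTR, called 3′ end regions here, and with 785 regions centered in a first exon or 5′-UTR, called 5′ end regions.

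The study asked what loss of the m6A methyltransferase METTL3 in brown fat does to the m6A of its transcripts. Tissue of Mettl3 flox/flox mice, which carry the floxed allele without Cre, was compared with tissue of BKO mice, which carry the same floxed allele and UCP1-iCre. All mice were C57BL/6 on normal chow, taken at 8 weeks of age, and RNA was pooled over mice into 1 immunoprecipitated (IP) and 1 input library per genotype. The Cre is driven by Ucp1, which brown adipocytes express, so the vessels, nerves, immune cells and fibroblasts of the tissue keep METTL3, and fewer cells of a type cannot be told apart from less RNA per cell. With 1 library per group no test between genotypes was possible. Counting intervals of single regions cover counting error only. Intervals of medians and shares describe the spread over regions, which are not replicates. None of them covers differences between mice.

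m6A is placed on nascent mRNA by the METTL3 and METTL14 complex, which prefers an adenosine in a GGACU-like sequence. In most tissues the mark is densest around stop codons and in 3′-UTRs, and a smaller share lies in internal exons, mainly in unusually long ones. Reader proteins such as the YTHDF and YTHDC families bind the mark and act on decay, translation, export and splicing. The antibody used for immunoprecipitation also binds some fragments without the mark, so IP enrichment is a measure relative to input and not a stoichiometry.

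Sequence could be shown only where a RefSeq promoter window (GRCm38.p6, 300 bases around a gene start) happened to lie over an internal-exon region, which was so for 14 members; in the 5 genes shown, another gene starts there. These stretches are shown because they hold short words like those that METTL3 prefers inside the measured regions. The strand of the gene was known for 13 of these 14 regions. On that strand 6 regions, in 5 genes, held at least 1 of 6 pentamers searched, and 3 held GGACT. The pentamers were GGACT, its variants with another last base (GGACA or GGACC) or with another start (AGACT or GAACT), and CCATG. The paper reports CCAUG, the RNA form of CCATG, as the motif of the BKO peaks. Below, 1 stretch of 30 bases is given for each of the 5 genes, 5′ to 3′ on the gene strand, with the pentamer in capitals.
Nop14 exon 8, chr5:34650487-34650516, minus strand: tgagagccatgaGGACTcagaagagagtga
Ppp2r3c exon 2, chr12:55302632-55302661, minus strand: ggagtcaaccatGGACTggaaagacgtgct
Pi16 exon 4, chr17:29326990-29327019, plus strand: aacaaaggtctcGGACTccctggcaaccga
Cic exon 2, chr7:25271034-25271063, plus strand: ggaggctgagcgGGACCctggagctgaggg
Myh7 exon 31, chr14:54975916-54975945, minus strand: tggcccagtggaGGACCaagtatgagacgg
The middle base of the pentamer lay 1 base from the nearest peak summit in Nop14, 33 bases in Ppp2r3c, 233 bases in Pi16, 64 bases in Cic and 48 bases in Myh7, give or take the origin of the deposited coordinates, which is not given in the sources used here. In Ppp2r3c the GGACT overlaps a CCATG, and a GGACC follows the GGACT of Nop14 closely, 19 bases from the summit. Such short words are common: GGACT occurred on the gene strand in 26.1% of 32851 RefSeq promoter windows and on either strand in 45.5%, GGACC in the same 26.1% and 45.5%, and CCATG in 26% and 39.1%. A match is therefore a description of the sequence and not a site. The share of windows with at least 1 of the 6 pentamers was not taken, and the overlaps searched were 20 to 300 bases long.

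The regions shown had few flox/flox reads except in Pi16. Nop14, a factor of small ribosomal subunit assembly, had 10 flox/flox IP, 8 flox/flox input, 114 BKO IP and 36 BKO input reads, and its log2 ratio of fold enrichment, BKO divided by flox/flox, was 1.23 (95% counting interval -0.72 to 3.18). Ppp2r3c, a regulatory subunit of protein phosphatase 2A, had 12, 6, 84 and 15 reads in the same order and a log2 ratio of 1.40 (-0.77 to 3.57). Pi16, a secreted peptidase inhibitor known as a marker of a fibroblast population, had 82, 55, 2059 and 406 reads and a log2 ratio of 1.65 (0.93 to 2.38). Only the Pi16 interval of these 3 excluded 0, and its input was also higher in BKO, by 2.26 on the log2 scale.

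The BKO libraries were the deeper ones. The deposited RPM values imply 8309098 flox/flox IP reads, 8826904 flox/flox input reads, 13687380 BKO IP reads and 13394053 BKO input reads. Internal-exon regions held 1.49% of the flox/flox IP reads, 0.396% of the flox/flox input reads, 2.61% of the BKO IP reads and 1.03% of the BKO input reads. The median member had 37, 10, 186 and 60 reads in those libraries, and 107 members had no flox/flox input read at all. At least 20 input reads in both genotypes were present in 342 members (33.4%), against 60% of the 3′ end regions, so each main result is also given for those 342, called well covered below. No region lay over Mettl3, so the deletion itself could not be checked in these files. Brown adipocyte markers were present throughout (10 of 10 had a region, whose input summed to 2068 RPM in the control and 3978 RPM in BKO, with 10 of 16 regions higher in BKO and log2 differences from -3.66 to 3.42 around a median of 0.26), whereas the input of skeletal muscle markers (5 of 8 with a region) summed to 8.95 and 483 RPM.

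Most internal-exon peaks were called in the BKO library. The authors' peak marks gave 667 members called in BKO only (65.2%, Wilson interval 62.2 to 68.1%; 32.4% of all regions), 267 called in both genotypes (26.1%; 38.2% of all regions) and 89 called in flox/flox only (8.7%; 29.4% of all regions). The share called in BKO only exceeded the 23.8% of the 3′ end regions and was close to the 68.2% of the 5′ end regions. Among well-covered members the split was 35.7% in BKO only, 51.5% in both and 12.9% in flox/flox only, against 18.2%, 58.9% and 22.9% of all well-covered regions. In the well-covered members BKO-only calls thus still outnumbered flox/flox-only calls, with a smaller margin.

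Fold enrichment (IP RPM over input RPM) of the listed internal-exon regions had nearly the same median in both genotypes, a value that depends on how the regions came to be listed. The median member had a fold enrichment of 3.19 in flox/flox and 3.09 in BKO, and the median of the log2 ratios (BKO divided by flox/flox) was 0.05 (95% order-statistic interval -0.09 to 0.21). The same median was -1.05 over all regions, -1.29 (-1.36 to -1.22) at the 3′ end, 0.62 (0.49 to 0.74) at the 5′ end and -1.83 (-2.11 to -1.58) for peaks centered in introns. Among well-covered members the median was -0.09 (-0.34 to 0.17), against -1.23 (-1.30 to -1.18) at the 3′ end and 0.41 (0.17 to 0.56) at the 5′ end.

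A region listed through a call in 1 genotype only had to be high in that genotype, so the medians above follow the mix of calls, which differs between places. Members called in BKO only had a median log2 ratio of 0.66 (0.52 to 0.77), those called in both genotypes -0.98 (-1.13 to -0.81) and those called in flox/flox only -1.98 (-2.42 to -1.71). At the 3′ end the same classes had 1.10 (1.01 to 1.19), -1.31 (-1.40 to -1.24) and -2.40 (-2.46 to -2.34). Internal exons were thus lower than the 3′ end among BKO-only regions and higher in both other classes. Among regions called in both genotypes, the median of internal exons was well below 0.

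**Figure D1:**
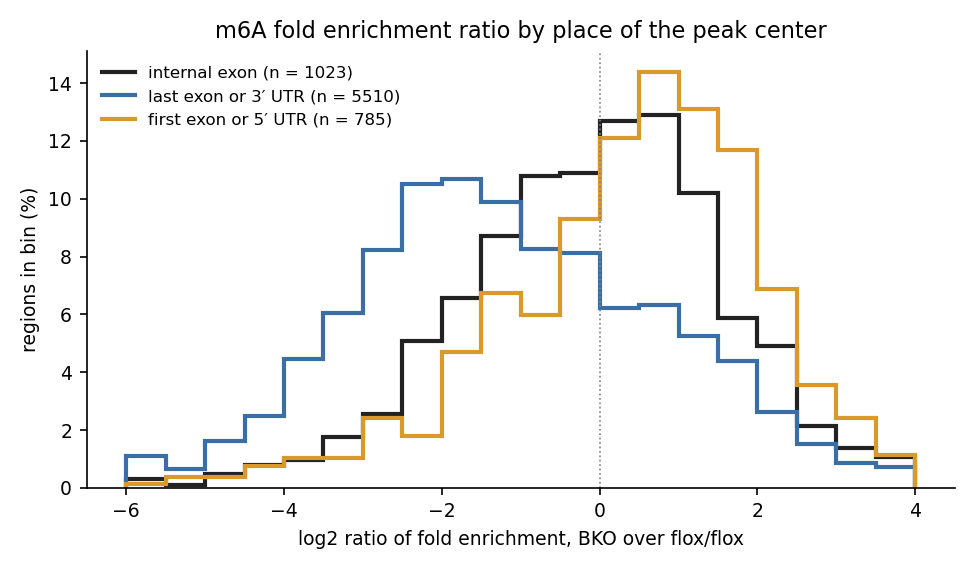
Share of regions (%, vertical axis) in bins of 0.5 of the log2 ratio of fold enrichment, BKO divided by flox/flox (horizontal axis), for 1023 internal-exon, 5510 3′ end and 785 5′ end regions; the outermost bins also hold all values beyond them. The internal-exon curve is centered near 0 (median 0.05), between the 3′ end (-1.29) and the 5′ end (0.62).

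A median near 0 did not mean that single members were close to 0. Of the members 500 were lower and 523 higher in BKO by any size, beside 66.6% and 33.4% of all regions. At least 2-fold lower in BKO were 279 members (27.3%; 50.8% of all regions), and at least 2-fold higher were 261 (25.5%; 18.6% of all regions). The counting interval lay below 0 in 215 members (44.6% of all regions had this) and above 0 in 136 (12% of all regions). These counts depend on where 0 is set: with the median of all regions subtracted, 121 members were at least 2-fold lower and 533 higher, and the intervals of 83 lay below 0 and of 357 above. Log2 ratios ran from -8.03 to 4.58, with quartiles of -1.13 and 1.02. Among well-covered members 106 (31%; 51.5% of all well-covered regions) were at least 2-fold lower and 66 (19.3%; 13.8%) at least 2-fold higher.

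Both the IP and the input of the listed internal-exon regions were higher in BKO at the median. The median log2 difference between genotypes in RPM was 1.77 for the input and 1.80 for the IP of the members, compared with 0.80 and -0.27 over all regions. The input was at least 2-fold higher in BKO in 764 members (74.7%; 43.2% of all regions) and at least 2-fold lower in 13 (7.37% of all regions). The IP was at least 2-fold higher in 696 members (68%; 33.7% of all regions) and at least 2-fold lower in 64 (39.3% of all regions). At the 3′ end the input was 0.69 higher and the IP 0.68 lower at the median. Among members, the IP difference varied with the calls through which they were listed. The IP median was 2.47 for members called in BKO only, 0.60 for both genotypes and -0.82 for flox/flox only. The input medians were 1.95, 1.55 and 1.27 in the same order. The share of the higher input in the near-0 ratio was not tested.

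The medians were also taken by flox/flox input reads. Members with 0 to 4 flox/flox input reads had a median log2 ratio of -0.01 (314 regions), those with 5 to 9 reads 0.36 (142), with 10 to 19 reads 0.18 (224), with 20 to 49 reads -0.09 (210) and with at least 50 reads -0.01 (133). The 3′ end medians in the same bins were -1.57, -1.35, -1.49, -1.29 and -1.18. In each bin the intervals of both places were apart, and the medians of both places stood closer together from 20 reads on than below. The calls differed within every bin, with more BKO-only calls in internal exons. At 0 to 4 reads 90.1% of members and 50.8% of 3′ end regions were called in BKO only. At 50 reads or more the shares were 28.6% and 9.46%. The part of the calls in these differences was not tested.

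Both places were also compared within genes. A total of 352 genes had an internal-exon and a 3′ end region, each taken as the region with the most input reads. The internal-exon log2 ratio was higher in 282 of them (80.1%), and the median difference was 1.69 (1.47 to 1.92). In 149 genes the internal-exon region was higher and the 3′ end region lower in BKO, and 22 genes had the opposite arrangement. In flox/flox the median fold enrichment of these genes was 2.82 in the internal exon and 7.36 at the 3′ end, and in BKO it was 3.33 and 2.5. The 104 genes whose regions were both well covered gave a median difference of 1.75 (1.49 to 2.06), with the internal exon higher in 91 (87.5%). How regions were listed favours this direction, since 69.9% of the internal-exon regions of these pairs and 17.9% of the 3′ end regions were called in BKO only. In the 55 pairs whose regions were both called in both genotypes the difference was 1.28 (0.91 to 1.78) and the internal exon was higher in 47; in the 122 pairs with both regions in the same call class it was 0.88 (0.42 to 1.19), with 90 higher.

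**Figure D2:**
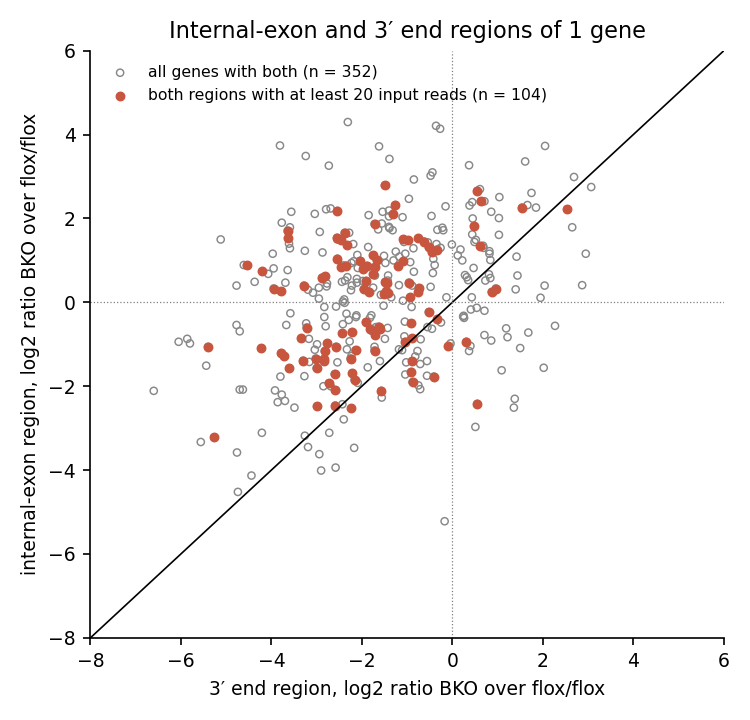
Each point is a gene with both an internal-exon and a 3′ end region; the axes give the log2 ratio of fold enrichment (BKO divided by flox/flox) of the 3′ end region (horizontal) and of the internal-exon region (vertical), and the solid line marks equal ratios. Filled points are the 104 genes with at least 20 input reads in both regions and genotypes; 282 of 352 genes lie above the line.

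Psmd4, the proteasome subunit that binds ubiquitin chains, had the largest such difference among the well-covered pairs. Its exon 2 region had 82 flox/flox IP, 62 flox/flox input, 580 BKO IP and 220 BKO input reads, which gives fold enrichments of 1.4 and 2.57. Its last-exon region had 1344, 48, 422 and 329 reads, which gives 29.2 and 1.25. The log2 ratio was thus 0.88 (0.14 to 1.62) in the internal exon and -4.54 (-5.19 to -3.89) at the end of the same gene. Kat14, a histone acetyltransferase, had 42, 42, 209 and 58 reads in exon 7 and 1888, 38, 568 and 134 in its 3′-UTR, with log2 ratios of 1.71 and -3.64. Usp47, a deubiquitinase, had 212, 127, 2015 and 386 reads in exon 21 and 1654, 52, 1030 and 375 in its last exon, with log2 ratios of 1.53 and -3.63. In these 3 genes the flox/flox enrichment sat at the 3′ end and was small in the internal exon. The opposite arrangement was rare among well-covered pairs (2 genes), of which Slc12a7, a potassium and chloride cotransporter, was the wider: exon 13 had 706, 84, 68 and 40 reads and a log2 ratio of -2.42 (-3.34 to -1.51), and its last exon had 248, 138, 455 and 159 reads and a ratio of 0.55 (-0.01 to 1.11).

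Against the 5′ end the order turned round. In 81 genes with an internal-exon and a 5′ end region the internal-exon log2 ratio was the lower one by a median of 1.10 (difference of -1.10, -1.51 to -0.95), and it was the higher one in 18. Among 19 well-covered pairs the difference was again -1.10 (-2.26 to -0.39), with the internal exon higher in 2. Within internal exons alone, 111 genes had regions in at least 2 different exons, and the region of the highest exon number had the lower ratio in 74 of them (median difference -0.46, -1.05 to -0.21). For the 19 of these genes in which every region was well covered, the difference was -0.35 (-2.19 to 0.50).

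The ratio differed with where the ends of the region lay. Of the members, 381 began and ended inside the exon that held their center, as regions in long exons do, and their median log2 ratio was 0.67 (0.49 to 0.87). Another 421 had both ends in introns, so the region was wider than the exon, and their median was -0.47 (-0.66 to -0.28). The 174 with 1 end in an intron had -0.18 (-0.42 to 0.25), and the 47 that reached another exon or the edge of the gene had -0.60 (-1.13 to 0.30). Called in BKO only were 78.5% of the regions inside 1 exon and 57.2% of those with both ends in introns. Among well-covered members the medians were 0.34 (0.19 to 0.62, 111 regions) inside 1 exon and -0.78 (-1.15 to -0.33, 134 regions) with both ends in introns. Regions with the last-exon label, split the same way, also differed: those inside 1 exon had -0.28 (-0.54 to -0.09, 718 regions, 45.8% called in BKO only) and those reaching beyond it -1.37 (-1.51 to -1.18, 1553 regions, 19.8%), so this difference was not particular to internal exons. The part of the mix of calls in it was not tested.

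Members whose region reached into the last intron, and so sat on the exon before the last, had ratios close to those of the 3′ end. These 123 regions had a median log2 ratio of -1.40 (-1.56 to -1.13), and 61.8% of them were at least 2-fold lower in BKO. The other 900 had 0.24 (0.09 to 0.34) and 22.6%. Since a region inside 1 exon cannot reach an intron, the split was also made within regions that had both ends in introns: the median was -1.54 (-1.80 to -1.34) next to the last intron (94 regions) and -0.27 (-0.45 to -0.01) elsewhere (327 regions). Among well-covered regions of this kind it was -1.48 (-1.77 to -1.01, 37 regions) and -0.60 (-0.94 to -0.01, 97 regions). The calls also differed. Called in BKO only were 38.3% of the 94 regions next to the last intron and 62.7% of the 327 elsewhere. Called in flox/flox only were 28.7% and 6.12%. The part of this mix of calls in the difference was not tested. By exon number the medians were 0.25 in exon 2, -0.24 in exon 3, -0.15 in exons 4 to 5, 0.10 in exons 6 to 10 and -0.08 from exon 11 on. Among well-covered members they were 0.25, -0.60, -0.72, -0.18 and 0.13 in the same order.

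**Figure D3:**
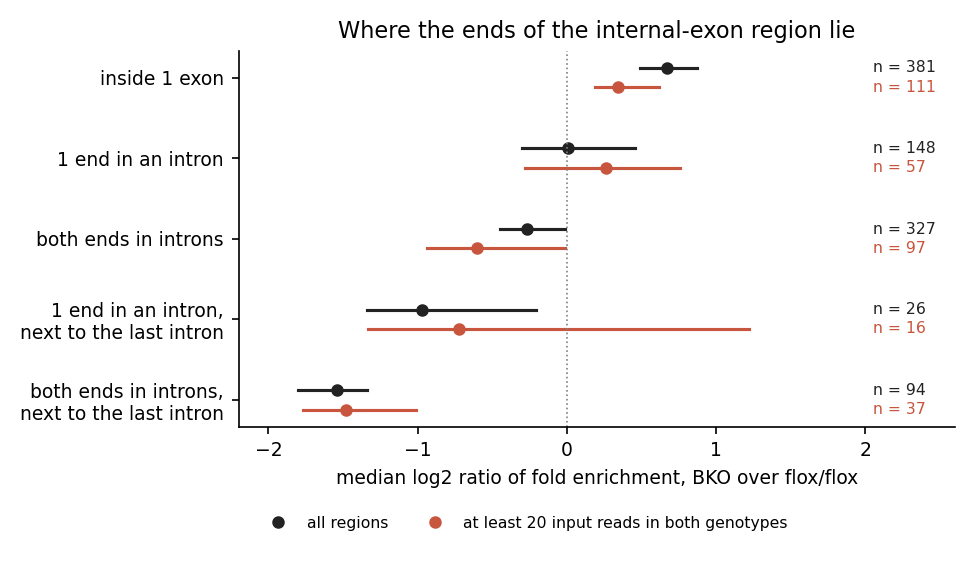
Median log2 ratio of fold enrichment, BKO divided by flox/flox (points, horizontal axis) with 95% order-statistic intervals (lines) for internal-exon regions grouped by where their ends lie; the upper 3 groups do not reach the last intron, and n is the number of regions. Regions inside 1 exon lie above 0 (0.67 for all and 0.34 for well-covered regions) and regions with both ends in introns next to the last intron lie lowest (-1.54 and -1.48).

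The 10 largest decreases among well-covered members all combined a lower IP with a higher input in BKO. Their log2 ratios ran from -5.65 to -2.76, their fold enrichments from 8.21 to 63.1 in flox/flox and from 1.04 to 3.92 in BKO, and none of them lay inside 1 exon. Pop5, which encodes a protein subunit of RNase P and RNase MRP, led the list in exon 5: the region had 4337 flox/flox IP, 72 flox/flox input, 492 BKO IP and 383 BKO input reads. Its fold enrichment went from 63.1 to 1.26, a log2 ratio of -5.65 (-6.20 to -5.11), and it reached the last intron. Mkks, a chaperonin-like protein of the primary cilium, had 1794, 110, 516 and 421 reads in exon 3 and a log2 ratio of -3.84 (-4.31 to -3.37). Sys1, a Golgi membrane protein, had 1680, 144, 382 and 344 reads in exon 3 and a ratio of -3.50 (-3.96 to -3.05). The Sys1 region is shared by 2 genes and reaches into the 3′-UTR.

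Of these 10 genes 4 encode mitochondrial proteins, a grouping made after their values were seen; 9.93% of the annotated genes with an internal-exon region carried the ontology term mitochondrion. Acat1, the mitochondrial acetoacetyl-CoA thiolase, had 454, 38, 596 and 562 reads in exon 7, and its ratio of -3.58 (-4.29 to -2.87) came with an input higher in BKO by 3.25 on the log2 scale and an IP lower by only 0.33. Atp5k, subunit e of the ATP synthase, had 491, 23, 208 and 106 reads in exon 2 and a ratio of -3.51 (-4.47 to -2.55). Pet100, an assembly factor of cytochrome c oxidase, had 472, 20, 386 and 146 reads in exon 2 and a ratio of -3.22 (-4.19 to -2.24). Ndufv3, a complex I subunit, had 874, 66, 1114 and 676 reads in exon 2 and a ratio of -3.11 (-3.65 to -2.56). In all 4 the BKO fold enrichment was below 3. The remaining 3 were Psmc5, a proteasome ATPase (-3.27), Ubxn1, a cofactor of the segregase p97 (-2.79), and Sugt1, a co-chaperone of HSP90 (-2.76). The Psmc5 region reached beyond the edge of the gene and is shared by 2 genes.

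The 10 largest increases had log2 ratios from 2.11 to 2.79 and a higher IP in all 10, while the input was higher in 6. Peaks were called in BKO only in 9 of them, and 6 lay inside 1 exon. Fgd5, an exchange factor for the small GTPase CDC42 known from endothelial cells, had 24, 23, 218 and 27 reads in exon 2, and its fold enrichment went from 1.11 to 7.65 (2.79, 1.39 to 4.19). Dll4, a Notch ligand of endothelial cells, had 70, 29, 730 and 44 reads in exon 9, and its fold enrichment went from 2.51 to 15.9, the highest of all well-covered members in BKO (2.66, 1.59 to 3.73). Their inputs differed by -0.38 and -0.02 on the log2 scale, so the difference lay in the IP. Emilin1, a glycoprotein of elastic fibers, had 102, 34, 1228 and 88 reads in a 1728-base region of exon 4, with fold enrichments of 3.13 and 13.5 (2.11, 1.21 to 3.01). Rin3, an exchange factor for the early endosome GTPase RAB5, had 72, 63, 879 and 141 reads in exon 6 (2.32, 1.55 to 3.10). Sh3tc1 had 76, 72, 1028 and 197 reads in exon 8 (2.18, 1.46 to 2.91). The others were Nod1, an intracellular sensor of bacterial cell wall (2.41), Akap13, an anchoring protein of protein kinase A (2.33), Gdf10, a secreted ligand of the TGF-beta family (2.26), Epc1, a subunit of a histone acetyltransferase complex (2.26), and Prag1, a pseudokinase (2.22). Among well-covered pairs, the 3′ end region was lower in BKO in Sh3tc1 (-2.54), Fgd5 (-1.49), Emilin1 (-1.31) and Rin3 (-1.26). It was higher in Prag1 (2.54), Gdf10 (1.54), Nod1 (0.63) and Dll4 (0.55), with intervals that included 0 in Nod1 and Dll4.

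**Figure D4:**
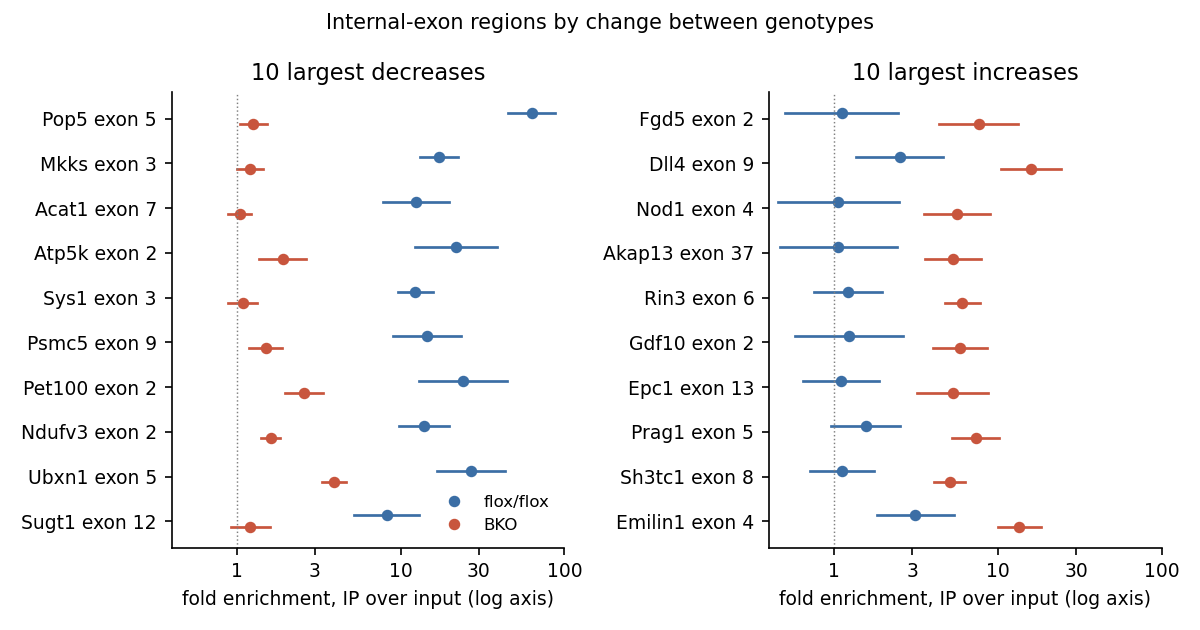
Fold enrichment (IP RPM over input RPM, log axis) in flox/flox and BKO of the well-covered internal-exon regions with the 10 largest decreases (left) and the 10 largest increases (right); points are single libraries and lines are 95% counting intervals. In the decreases flox/flox stands between 8.21 and 63.1 and BKO between 1.04 and 3.92, and in the increases flox/flox stands between 1.06 and 3.13 and BKO between 5.09 and 15.9.

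The highest flox/flox fold enrichments among well-covered members were all lower in BKO, which a choice by the flox/flox value favours. Besides 7 of the decreases above they included Anp32a, an acidic nuclear phosphoprotein, with 578, 20, 551 and 84 reads in exon 5 (29.3 to 6.35), Taf15, an RNA-binding protein of the FET family, with 570, 32, 506 and 58 reads in exon 15 (18.4 to 8.41), and Acrbp, a protein of the sperm acrosome, with 416, 26, 183 and 32 reads in exon 5 (16.4 to 5.46). Taf15 was also among the 5 highest in BKO, with Dll4, Emilin1, Irx3 and Metrnl. Irx3, a homeobox transcription factor, had 84, 33, 226 and 22 reads in exon 2 and went from 2.66 to 9.66 (log2 ratio 1.86, 0.67 to 3.06). Metrnl, a secreted protein of fat and muscle, had 118, 20, 760 and 94 reads in exon 2, with 6.02 and 7.84 (0.38, -0.66 to 1.42).

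Genes with several members showed that regions of 1 gene did not always move together. Of 140 genes with at least 2 regions, all regions were higher in BKO in 39, all were lower in 42, and 59 were mixed. These signs were counted without regard to the intervals, and some of the genes had their regions in 1 exon. In 9 genes a region with its interval above 0 stood beside one below 0. Eif3a, a scaffold subunit of the translation initiation factor eIF3, had the most, 6 regions in exons 16 to 21. The region of exon 21 next to the last intron had 92, 6, 458 and 208 reads and a log2 ratio of -2.72 (-4.32 to -1.11), on 6 flox/flox input reads. Exon 20 had 124, 30, 603 and 147 reads (-0.10, -0.98 to 0.78), exon 19 had 324, 60, 1856 and 479 (-0.58, -1.17 to 0.01), and exon 16 had 30, 18, 512 and 118 (1.28, 0.05 to 2.52). Exons 17 and 18 had ratios of 0.14 and 1.14 with intervals that included 0. The lowest of the 6 was thus the one nearest the end of the gene.

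Hspa4, a chaperone of the HSP110 family, showed the same order over 4 regions. Exon 18, next to the last intron, had 192, 30, 264 and 140 reads and a ratio of -1.85 (-2.73 to -0.97), while exons 16 and 15 had -0.60 and -0.51 with intervals that included 0, and exon 13 had 26, 24, 186 and 60 reads and a ratio of 1.39 (0.13 to 2.64). Rrbp1, a ribosome-binding protein of the endoplasmic reticulum chosen after its values were seen, had 4 regions with a median ratio of -0.18. The lowest had 110, 10, 198 and 156 reads in exon 23 (-3.11, -4.45 to -1.78). The highest had 30, 20, 174 and 64 in exon 22 (0.75, -0.52 to 2.02). Cdk11b, a cyclin-dependent kinase linked to splicing, had 4 regions between 0.23 and 0.68, all called in BKO only and all listed under 2 genes, so that their reads cannot be assigned to 1 of them.

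Over all genes with a region, 851 of 7077 (12%) had one in an internal exon. The counts of the gene lists are to be read beside this share, taken over the genes of a list that had a region. Of 40 adipocyte and thermogenic genes, 30 had a region and 2 had an internal-exon region. Adrb3, the receptor through which noradrenaline turns on thermogenesis, had 905, 413, 2501 and 666 reads in exon 2, with fold enrichments of 2.32 and 3.67 and a log2 ratio of 0.66 (0.36 to 0.95). The Adrb3 region also reached into the 5′-UTR. Ppargc1b, a coactivator of mitochondrial gene expression, had 262, 91, 170 and 94 reads in exon 8 and a ratio of -0.79 (-1.49 to -0.08). The median of the 30 3′ end regions of the same list was -1.94. None of 30 genes of lipid synthesis and oxidation had an internal-exon region, although 8 had a region elsewhere. Of 27 genes of oxidative phosphorylation and the TCA cycle, 9 had a region and 3 had an internal-exon region. Cox7a1, a cytochrome c oxidase subunit, had 4302, 1054, 2772 and 1601 reads (4.33 to 1.69, log2 ratio -1.35, -1.54 to -1.17). The others were Sdhb and Sucla2, whose fold enrichments of 1.02 to 1.19 were close to 1 in both genotypes. Cox6b1, another cytochrome c oxidase subunit, had 2349, 525, 1564 and 1200 reads in exon 2 (4.75 to 1.28; -1.90, -2.14 to -1.65), and its 3′-UTR region had -0.88.

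Further mitochondrial genes, some of them shared with that list, were found by ontology terms. By the deposited gene ontology terms, a choice made after their values were seen, 30 internal-exon regions belonged to proteins of the mitochondrial inner membrane, with a median log2 ratio of -1.53; 18 were at least 2-fold lower and 4 at least 2-fold higher, beside 27.3% and 25.5% of all members. The 87 regions of this term at the 3′ end had -2.19. The wider term mitochondrion held 86 internal-exon regions with a median of -0.86, of which 39 were at least 2-fold lower and 8 at least 2-fold higher, and 413 at the 3′ end with -2.18. Ndufa3 had 683, 107, 437 and 401 reads in exon 2 (-2.66, -3.16 to -2.16), Ndufa5 594, 88, 804 and 540 in exon 3 (-2.29, -2.79 to -1.78) and Ndufb9 1168, 372, 1682 and 1569 in exon 2 (-1.67, -1.94 to -1.39), all complex I subunits. Slc25a4, the ADP/ATP carrier, had 414, 94, 1418 and 1270 reads in exon 3 (-2.09, -2.57 to -1.61), with input higher in BKO by 3.14 on the log2 scale. Ndufs7, also of complex I, was among the 4 that were higher, with 716, 573, 852 and 216 reads in exon 4 (1.54, 1.16 to 1.91), where the input was lower in BKO and the IP was lower by 0.47 on the log2 scale, while its last exon had -2.55.

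The list of RNA processing genes had 22 members. Of 46 genes of RNA binding, splicing and the m6A machinery, 34 had a region and 15 had 22 internal-exon regions. Of these regions 18 were called in BKO only, and the median log2 ratio was 0.24 (-0.24 to 0.87). None was at least 2-fold lower and 3 were at least 2-fold higher. Among all members 65.2% were called in BKO only, 27.3% were lower and 25.5% higher. The 28 3′ end regions of the list had -1.16. Decreases were present outside this list. By the deposited ontology term RNA splicing, 51 internal-exon regions included 12 at least 2-fold lower and 6 at least 2-fold higher. The term RNA binding held 233, with 57 lower and 47 higher. Both terms were picked after their values were seen. Ythdf2, a reader that promotes decay of m6A mRNA, had 160, 83, 743 and 281 reads in exon 4 (2.04 to 2.58; 0.34, -0.26 to 0.95). Ythdc1, the nuclear reader, had 42, 18, 367 and 77 reads in exon 3 (0.94, -0.27 to 2.15) and 50, 16, 432 and 68 in exon 9 (0.95, -0.29 to 2.18), both called in BKO only. Zc3h13 and Virma, members of the writer complex, had 3 and 1 regions with ratios from -0.59 to 1.80 and intervals that included 0. Scaf11, a splicing-related protein, had 90, 52, 737 and 216 reads in exon 11 (0.87, 0.11 to 1.62), and Son, a scaffold of nuclear speckles, had ratios of -0.24 and 0.26.

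Of 58 chromatin modifiers and cofactors, 38 had a region and 15 had 18 internal-exon regions, 17 of them called in BKO only. The median of the 18 was 0.25 (-0.83 to 0.77), beside -0.85 for the 39 3′ end regions of the list. The 18 regions had a median of 5 flox/flox input reads. Of them 4 (22.2%) were at least 2-fold lower and 3 (16.7%) at least 2-fold higher, beside 27.3% and 25.5% of all members. The counting interval lay below 0 in 1 of the 18 and above 0 in 1, so most of these ratios were not resolved at this depth. Calls in BKO only were common at such depth, with 90.1% of the members at 0 to 4 and 80.3% at 5 to 9 flox/flox input reads. Kdm2a, a histone demethylase, had 38, 32, 210 and 86 reads in exon 12 (0.92, -0.16 to 1.99). By the deposited terms, 4.77% of the 755 annotated genes with an internal-exon region carried RNA splicing and 6.49% nuclear speck, against 2.25% and 3.1% of 5457 annotated genes with any region, whereas 11.9% against 22.4% carried integral component of membrane. These terms were picked after their shares were seen and were not tested.

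Of 47 translation genes, 38 had a region and 4 had 11 internal-exon regions (Eif3a, Eef1g, Eif5b and Rps27l). The median of the 11 was -0.58 (-2.48 to 1.14), beside -2.49 for the 31 3′ end regions of the list. Eef1g, an elongation factor subunit, had 136, 38, 346 and 194 reads in exon 7 (-1.10, -1.91 to -0.29), and Eif5b, which joins ribosomal subunits, had 268, 36, 953 and 238 in exon 4 (-0.98, -1.74 to -0.23). Of 28 cytoskeletal giants 15 had a region, and 2 had 1 internal-exon region each. Plec, the linker plectin, had a 3286-base region of exon 32, the widest of all members, with 142, 32, 2157 and 386 reads (0.25, -0.56 to 1.05), and Macf1 had -0.12. Of 26 immune genes 13 had a region, and only C1qa had an internal-exon region. C1qa, a complement subunit made by macrophages, had 138, 14, 1022 and 162 reads in exon 2 (-0.68, -1.82 to 0.46).

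The lists of extracellular matrix and endothelial genes together had 7 members. Of 45 extracellular matrix genes 21 had a region and 4 had 5 internal-exon regions, 3 of them at least 2-fold higher and 1 at least 2-fold lower. Among all members 25.5% were higher and 27.3% lower by this size. Of the 5 regions 4 were called in BKO only, as were 65.2% of all members. The 20 3′ end regions of the list had a median log2 ratio of -0.31. Tnxb, a tenascin of connective tissue, had 14, 8, 812 and 41 reads in 1 region of exon 2 (3.42, 1.62 to 5.22) and 12, 8, 234 and 30 in another (2.27, 0.38 to 4.17), so its flox/flox values rest on 8 input reads each. Sparc, a collagen-binding protein, had 74, 36, 2166 and 670 reads in exon 2 (0.55, -0.27 to 1.38), with the input higher in BKO by 3.58 on the log2 scale. Of 21 endothelial genes 18 had a region and 2 had an internal-exon region, Dll4 (above) and Pecam1. Pecam1, an adhesion protein of endothelial junctions, had 70, 60, 703 and 186 reads in exon 7 (1.58, 0.80 to 2.35). The 18 3′ end regions of this list had a median of 0.29. The marker genes of fibroblasts had input sums of 132 and 479 RPM in flox/flox and BKO (3 of 6 markers with a region), those of endothelium 271 and 172 RPM (5 of 6), those of immune cells 108 and 178 RPM (4 of 7) and those of Schwann cells 10.4 and 15.2 RPM (2 of 4). The part of these levels in the ratios was not tested.

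Skeletal muscle genes gave a group that was hardly present in flox/flox. Of 40 genes 24 had a region, and 10 had 22 internal-exon regions. Of these regions 21 were called in BKO only. Among all members the share was 65.2%, and among those with 0 to 4 flox/flox input reads 90.1%. The 22 regions had a median of 0 flox/flox input reads and an input higher in BKO by a median of 5.59 on the log2 scale. The 14 3′ end regions of the list had a median log2 ratio of 0.51. The median of 0.82 of the internal-exon regions therefore sets a measured BKO enrichment against a flox/flox value of few or no reads, and 1 of the 22 had a counting interval that excluded 0. Myh4, a fast myosin heavy chain, had 73, 42, 5471 and 2869 reads in exon 37, with fold enrichments of 1.83 and 1.87 (0.03, -0.74 to 0.80). Tnnt3, fast troponin T, had 52, 11, 4266 and 2363 reads in exon 14 (-1.41, -2.69 to -0.13). Myh7, the slow myosin heavy chain, had no flox/flox input read in any of its 4 regions and between 146 and 217 BKO input reads, and its 4 ratios from -0.50 to 0.78 had intervals that included 0. Reads of myosin heavy chain genes of near-identical sequence cannot be told apart by these counts. Tnnc1, slow troponin C, had 8, 4, 647 and 348 reads in exon 3 (-0.07, -2.32 to 2.17). Tnnt1, slow troponin T, and Trdn, triadin of the calcium release complex, had 5 regions each, with 4 and 2 flox/flox input reads over all 5 and 1055 and 214 BKO input reads. Brown adipose tissue lies on skeletal muscle of the back, and the part of muscle RNA in these members was not tested. Without the members whose input was at least 8-fold higher in BKO, the median log2 ratio of internal-exon regions was 0.19.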

How the data were processed

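m6A RIP-seq of iBAT was analysed in 4 libraries, 1 IP and 1 input per genotype. By the methods and the submitters' processing notes, the authors trimmed reads with skewer, mapped them to GRCm38 with BWA (0.7.12-r1039), an aligner that does not model splicing, and called peaks with MACS2 (2.1.0). How peaks of both genotypes were joined and how reads were counted is not given in these sources. Deposited by the authors were whole read counts per region and library, RPM values of the count plus 1, and fold enrichments, the linear ratio of IP RPM to input RPM. No listed fold enrichment was below 1.00 in either genotype, so the table leaves out regions without enrichment in 1 of them. The deposited log2 column is the authors' own comparison and was not used; log2 ratios of BKO over flox/flox were recomputed from the fold enrichments. The authors' labels gave the place of the center and ends of each region. Columns named CON and KO were read as flox and BKO.

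Each of the 9243 regions was counted once. Counting intervals (95%) were taken on the log scale from counts plus 1 with 2 reads per fragment. Medians have order-statistic and shares Wilson intervals, which treat regions as independent; PCR copies are not independent molecules. Called refers to the authors' peak marks. Changes between genotypes were counted by size, at least 2-fold, with 1 library per group and no p-value. Python (3.11.15), pandas (2.3.3), NumPy (2.4.6), SciPy (1.17.1) and Matplotlib (3.10.9) were used, and the intervals were tested on simulated data. Members and gene lists were chosen with earlier results of these data known. Named were, among members with a symbol, the 10 largest decreases and increases among called regions that had 20 or more input reads per genotype, the 10 highest flox/flox and 5 highest BKO fold enrichments, the 5 genes with the most regions, genes the study names in its text, and up to 4 members per list with the most input reads; genes named as examples of same-gene pairs, of ontology terms or of sequences fall outside this rule and were chosen after their values were seen. Sequences are from RefSeq (GRCm38.p6).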

Additional observations from a re-analysis of the deposited data

How the results depend on the processing

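The median log2 ratio of internal-exon regions (0.05) depended on the scale. It was 1.10 with the median of all regions (-1.05) subtracted, 1.12 with that of regions with at least 20 input reads (-1.07) subtracted, 0.33 with 5 added to each count and -0.09 at 20 input reads or more; without regions next to the last intron, an alternative chosen after seeing the data, it was 0.24, and over regions called in both genotypes, likewise added, -0.98. The other 8 alternatives gave -0.01 to 0.19. Counts of at least 2-fold lower and higher regions (279 and 261) became 121 and 533 after subtracting the median, 123 and 97 at 4-fold, and 106 and 66 at 20 input reads or more. Regions with an interval below and above 0 (215 and 136) became 83 and 357 after subtracting the median and 121 and 82 at 20 input reads or more, and those above 0 became 206 with 1 read per fragment. The share called in BKO only (65.2%) was 35.7% at 20 input reads or more. The difference between internal-exon and 3′ end regions of a gene, which no centring can move, was 1.69 to 1.77 as planned and 1.19 when only regions called in both genotypes were paired. Subtracting the median changed the sign of 13 of 81 named regions; Ppargc1b exon 8 (to 0.26) and Eif5b exon 4 (to 0.07) were those of them with an interval that had excluded 0. The causes of these shifts beyond the change of scale or of the regions counted were not tested.

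Depth was low: 456 members (44.6%) had fewer than 10 flox/flox input reads, and 1 library per genotype leaves differences between mice unmeasured. Which genotype or preparation step raised the input of internal exons cannot be told apart. No paired analysis was possible because each group holds 1 library, and leaving out a library leaves no comparison. The planned share of peaks with a motif was not run, since it needs the genome sequence of the regions.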
